A study of Homo sapiens with 6 samples.

Results

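The genes of the vascular endothelial growth factor (VEGF) family were examined in 6 RNA-seq libraries of MRC5 human embryonic lung fibroblasts, as 10 symbols out of 25368 in each of 2 expression tables. They are the ligands VEGFA, VEGFB, VEGFC and PGF, the receptors FLT1, KDR and FLT4, the co-receptors NRP1 and NRP2, and ANGPT1, a ligand of the neighbouring angiopoietin pathway. All 10 were listed in both tables. In the JUN overexpression table, adenovirus delivered an empty vector (the control), FLAG-tagged JUN WT, or FLAG-tagged JUN AA, in which both serines phosphorylated by JNK are alanine. Cells were infected for 2 hours and then cultured for 3 days. In the JNKi table, untreated MRC5 cells stood beside iCAFs, which are MRC5 cells kept for 7 days in medium conditioned by the breast cancer line MDA-MB-231, and beside iCAFs given the JNK inhibitor at 1 µM for 48 hours. The iCAFs without inhibitor received DMSO as vehicle. All 6 libraries came from MRC5 immortalised with hTERT, and the conditioned medium was collected without serum, so an effect of the medium itself and of tumour cell factors cannot be told apart in the iCAFs. The question was whether the response to JUN and to JNK was limited to VEGFC or was shared by other angiogenic and lymphangiogenic factors.

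VEGF ligands are secreted dimers that bind tyrosine kinase receptors on endothelial cells. VEGFA acts mainly through KDR to drive the growth of blood vessels, PGF and VEGFB bind FLT1, and VEGFC acts through FLT4 to drive the growth of lymphatic vessels. NRP1 and NRP2 bind VEGF ligands as co-receptors and also serve as receptors for class 3 semaphorins. ANGPT1 binds the receptor TEK and is known to stabilise vessels. Fibroblasts are a common source of the ligands and of ANGPT1, whereas KDR and FLT4 are chiefly endothelial.

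Every condition is a single library, which leaves differences without a check by replicates, and p-values are not given. Values are FPKM, which are scaled per length and per mapped fragment, and a difference is that of log2(FPKM + 1), a scale that understates the change of low genes. A gene was said to rise or fall at a difference of at least 1, that is 2-fold on this scale. Shares of all genes refer to those with a mean of at least 1 FPKM over the 3 libraries of a table, which left 10311 genes for JUN overexpression and 11780 for the JNKi libraries. Of the 10 members, 6 passed this filter in the first table and 7 in the second. The number of reads is not given in the sources used here, and the precision of single values is unknown. JUN itself was at 25.5 FPKM with empty vector, 4543 with JUN WT and 291 with JUN AA, so the amount of JUN and the mutation of its phosphorylation sites cannot be told apart between JUN WT and JUN AA. It was at 57.1 FPKM for MRC5, 55.3 for iCAFs and 21.1 for iCAFs+JNKi. All 10 fibroblast markers listed were at 1 FPKM or more in every library. Of 14 endothelial markers, EGFL7 alone was at 1 FPKM or more in the JUN overexpression libraries. In the JNKi libraries EGFL7 and TEK were, while CDH5 and ERG were listed at 0 in all 6. The highest of 8 epithelial markers was KRT18, at 9.87 to 36.7 FPKM. The highest of 7 leukocyte markers was CD68, at 31.1 to 85.7 FPKM.

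The promoters of VEGFC, FLT1 and VEGFB are shown because VEGFC and FLT1 moved in opposite directions with the JNK inhibitor, while VEGFB passed the 2-fold threshold in no comparison. The RefSeq promoter table (GRCh38.p14) matched 6 of the 10 members. The 250 bases before the annotated start are printed 5′ to 3′ on the strand of the gene, and capitals mark the CRE octamer TGACGTCA and the core of the hypoxia response element, ACGTG or GCGTG, on either strand.
VEGFC promoter (chr4:176792923-176793172, minus strand): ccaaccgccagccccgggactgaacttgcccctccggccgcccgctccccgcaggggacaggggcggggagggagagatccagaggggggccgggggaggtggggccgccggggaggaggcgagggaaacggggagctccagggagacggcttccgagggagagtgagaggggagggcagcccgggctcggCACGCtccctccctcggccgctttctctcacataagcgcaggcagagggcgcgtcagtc
FLT1 promoter (chr13:28495129-28495378, minus strand): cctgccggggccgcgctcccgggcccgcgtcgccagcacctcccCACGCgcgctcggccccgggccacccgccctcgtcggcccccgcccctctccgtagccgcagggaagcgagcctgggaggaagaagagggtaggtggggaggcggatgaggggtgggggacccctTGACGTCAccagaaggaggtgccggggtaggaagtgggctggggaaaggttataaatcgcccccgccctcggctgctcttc
VEGFB promoter (chr11:64234334-64234583, plus strand): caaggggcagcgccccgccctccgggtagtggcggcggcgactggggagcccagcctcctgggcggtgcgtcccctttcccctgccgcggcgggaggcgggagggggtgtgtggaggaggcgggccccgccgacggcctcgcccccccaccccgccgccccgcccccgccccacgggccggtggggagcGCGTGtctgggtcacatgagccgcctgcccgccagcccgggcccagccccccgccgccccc
The AP-1 heptamer, TGACTCA or TGAGTCA, lay in 0 of the 6 promoters, against 4.20% of all 35114 promoters of this length. The CRE octamer, to which ATF and JUN dimers can bind, was found in FLT1, with its first base 81 bases before the start, and in 1.65% of all promoters. The hypoxia core was found in 4 of the 6 and in 43.2% of all. In VEGFC its first base lay 59 bases before the start. These matches describe letters in a short window and are not binding sites. With 6 promoters, 0 cannot be told apart from a share of 4.20%. Enhancers were not examined here, including the one linked to VEGFC where the paper measured JUN and phosphorylated JUN by ChIP-qPCR.

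VEGFC, on chromosome 4 of GRCh37 from 177604689 to 177714076, was the VEGF ligand that passed the 2-fold threshold in JUN WT, in iCAFs and with the inhibitor. It was at 12.3 FPKM with empty vector, 32.5 with JUN WT and 12.2 with JUN AA. JUN WT thus stood 2.64-fold above the control on the linear scale, while JUN AA and the control were nearly level. The log2 difference of VEGFC was 1.33 in JUN WT relative to control and -0.01 in JUN AA relative to control. Across the JNKi table VEGFC was at 36.0 FPKM for MRC5, 79.5 for iCAFs and 34.2 for iCAFs+JNKi, so the inhibited library lay close to the uninduced one. Its log2 difference was 1.12 in iCAFs relative to MRC5, -1.20 in iCAFs+JNKi relative to iCAFs and -0.07 in iCAFs+JNKi relative to MRC5. In bulk RNA, more expressing cells and more mRNA per cell cannot be told apart.

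VEGFA, the main growth factor for blood vessels, did not follow VEGFC in the JUN overexpression table. It lies on chromosome 6 from 43737921 to 43754224 and was at 12.7 FPKM with empty vector, 6.03 with JUN WT and 7.73 with JUN AA. Both JUN libraries were therefore below the control, where VEGFC in JUN WT was above it. The log2 difference in JUN WT was -0.96, just short of the threshold, although the control was 2.11-fold above JUN WT on the linear scale. It passed the threshold with a pseudocount of 0.1, at -1.06, and with differences centred on the median gene, at -1.11. For the JNKi table, VEGFA was at 11.8 FPKM for MRC5, 20.7 for iCAFs and 12.5 for iCAFs+JNKi, the same order as VEGFC but with smaller steps. Its log2 differences there were 0.76 in iCAFs relative to MRC5 and -0.69 in iCAFs+JNKi relative to iCAFs, neither past the threshold. VEGFA shares exon bases with an unnamed gene on the annotation used, and the library kit named in the labels does not mark strand, so reads of the pair cannot be told apart.

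VEGFB, on chromosome 11 from 64002056 to 64006736, was the most abundant ligand of the JUN overexpression table. It was at 62.8 FPKM with empty vector, 66.2 with JUN WT and 81.3 with JUN AA. Among the JNKi libraries VEGFB was at 38.2 FPKM for MRC5, 23.2 for iCAFs and 28.4 for iCAFs+JNKi, and its difference of -0.69 in iCAFs relative to MRC5 was opposite in sign to that of VEGFC. PGF, the placenta growth factor, stayed low. It was at 1.09 FPKM with empty vector, 0.31 with JUN WT and 1.12 with JUN AA, and between 0.22 and 0.54 FPKM in the JNKi table. PGF passed the filter on low values in neither table.

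**Figure D1:**
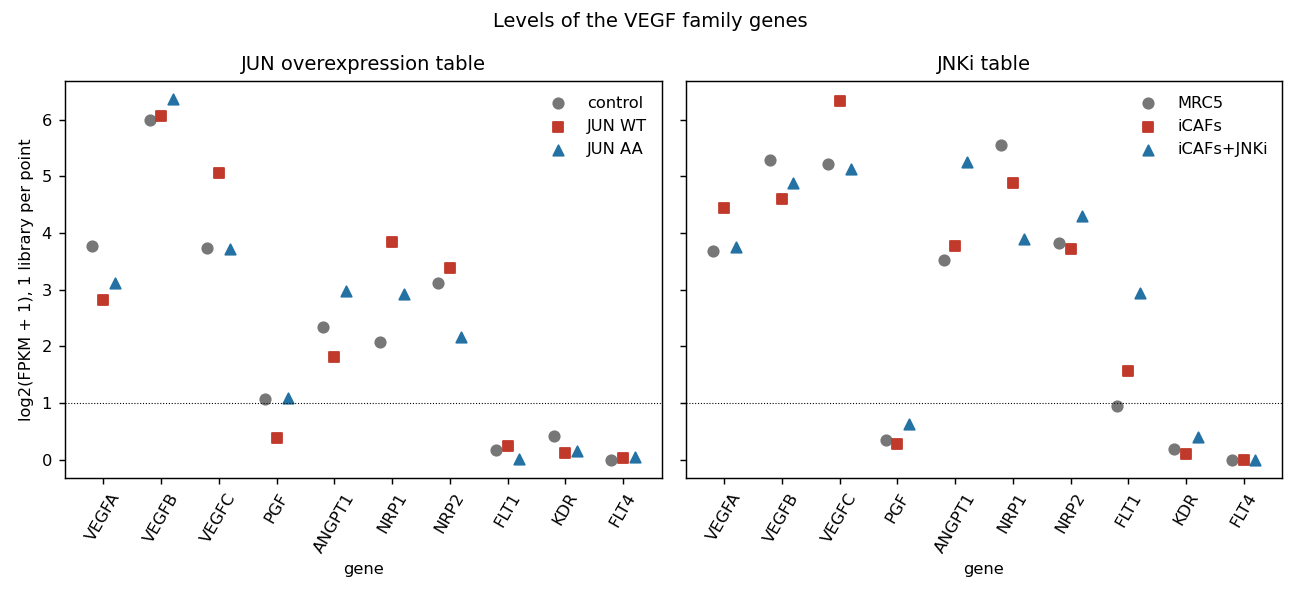
Levels of the 10 genes as log2(FPKM + 1) on the vertical axis, with 1 point per library, the JUN overexpression table on the left and the JNKi table on the right; the dotted line marks 1 FPKM. VEGFC was highest in JUN WT and in iCAFs within its tables, ANGPT1 and FLT1 were highest in iCAFs+JNKi, and KDR and FLT4 lay below the line in all 6 libraries.

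The mixture of ligand mRNAs therefore differed between libraries. VEGFC made up 13.8% of the FPKM of the 4 ligands with empty vector, 31.0% with JUN WT and 11.9% with JUN AA. VEGFB held 70.6%, 63.0% and 79.4% in the same libraries and was the largest part of each. In the JNKi table VEGFC made up 41.7% for MRC5, 64.3% for iCAFs and 45.2% for iCAFs+JNKi. The ratio of VEGFC to VEGFA was 0.97 with empty vector, 5.39 with JUN WT and 1.58 with JUN AA, but only 3.05 for MRC5, 3.84 for iCAFs and 2.73 for iCAFs+JNKi. JUN WT thus had the ligand mixture most tilted from VEGFA towards VEGFC of its table, with VEGFC higher and VEGFA lower, whereas both were higher in iCAFs than in MRC5.

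**Figure D2:**
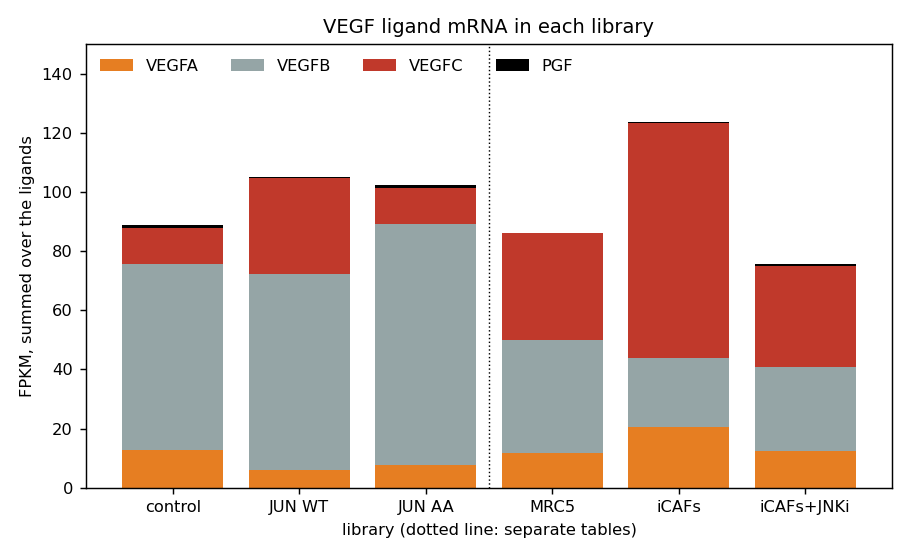
FPKM of VEGFA, VEGFB, VEGFC and PGF stacked for each library, with the sum of the 4 ligands on the vertical axis from 0 and a dotted line between the separately normalised tables. The VEGFC part was 32.5 FPKM in JUN WT against 12.3 in the control, and 79.5 FPKM in iCAFs against 36.0 in MRC5.

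Among the co-receptors, NRP1 had the largest rise of all members in JUN WT. NRP1, on chromosome 10 from 33466420 to 33625190, was at 3.24 FPKM with empty vector, 13.4 with JUN WT and 6.62 with JUN AA. Both JUN libraries were above the control, and JUN AA lay between the other two. The log2 difference was 1.76 in JUN WT relative to control, larger than the 1.33 of VEGFC, and 0.85 in JUN AA relative to control. In the JNKi table NRP1 was at 46.1 FPKM for MRC5, 28.6 for iCAFs and 13.9 for iCAFs+JNKi. Unlike VEGFC, it was lower in iCAFs than in MRC5, with a difference of -0.67, and lower again with the inhibitor. That last difference was -0.99, just short of the threshold, with iCAFs 2.06-fold above iCAFs+JNKi on the linear scale. NRP1 fell in iCAFs+JNKi relative to MRC5, by 1.66 on the log2 scale.

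NRP2, the co-receptor more closely tied to lymphatic vessels, lies on chromosome 2 from 206546714 to 206662857. It was at 7.73 FPKM with empty vector, 9.46 with JUN WT and 3.47 with JUN AA, so the low value was that of JUN AA. Its difference was 0.26 in JUN WT relative to control, -0.97 in JUN AA relative to control and 1.23 in JUN WT relative to JUN AA. In the JNKi table NRP2 was at 13.2 FPKM for MRC5, 12.1 for iCAFs and 18.7 for iCAFs+JNKi. The co-receptors thus went opposite ways with the inhibitor, and the ratio of NRP1 to NRP2 was 3.49 for MRC5, 2.35 for iCAFs and 0.74 for iCAFs+JNKi. It was 0.42 with empty vector, 1.41 with JUN WT and 1.91 with JUN AA. Both co-receptor genes share exon bases with unnamed genes, as VEGFA does.

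The kinase receptors were low in these fibroblasts, with 1 exception. FLT1, on chromosome 13 from 28874483 to 29069282, was at 0.94 FPKM for MRC5, 1.97 for iCAFs and 6.69 for iCAFs+JNKi. Each step was upward, and FLT1 rose by 1.37 on the log2 scale in iCAFs+JNKi relative to iCAFs and by 1.98 relative to MRC5. In the JUN overexpression table it was at 0.13 FPKM with empty vector, 0.19 with JUN WT and 0.01 with JUN AA, too low to compare. FPKM per gene do not separate the membrane form of FLT1 from its soluble form, which is known to trap ligand. KDR ranged from 0.07 to 0.35 FPKM over all 6 libraries. FLT4, the receptor of VEGFC, was listed at 0 in the control and in all 3 libraries of the JNKi table, and its highest value was 0.04 FPKM in JUN AA.

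ANGPT1, which is not a VEGF, was highest in the inhibited iCAFs of its table, as FLT1 was. It was at 10.6 FPKM for MRC5, 12.6 for iCAFs and 37.1 for iCAFs+JNKi, so the inhibited library stood alone. ANGPT1 rose by 1.49 on the log2 scale in iCAFs+JNKi relative to iCAFs, a 2.94-fold rise on the linear scale. In the JUN overexpression table it was at 4.10 FPKM with empty vector, 2.52 with JUN WT and 6.88 with JUN AA. JUN WT was the lowest and JUN AA the highest of these, and ANGPT1 fell in JUN WT relative to JUN AA, by 1.16 on the log2 scale. Its receptor TEK, taken from the list of other VEGF and angiopoietin genes, was at 2.52 FPKM for MRC5, 3.77 for iCAFs and 10.4 for iCAFs+JNKi, and rose by 1.26 in iCAFs+JNKi relative to iCAFs. The 13 endothelial markers other than TEK summed to 7.77 FPKM for MRC5, 7.97 for iCAFs and 7.32 for iCAFs+JNKi. EGFL7 alone gave 6.65, 6.68 and 6.09 FPKM of these sums, which therefore say little of the other markers. A part of endothelial cells in the levels of FLT1 and TEK was not tested. Of the 10 fibroblast markers, 6 also rose in iCAFs+JNKi relative to iCAFs, with a median of 1.12, and their part in the rise of ANGPT1 was not tested.

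**Figure D3:**
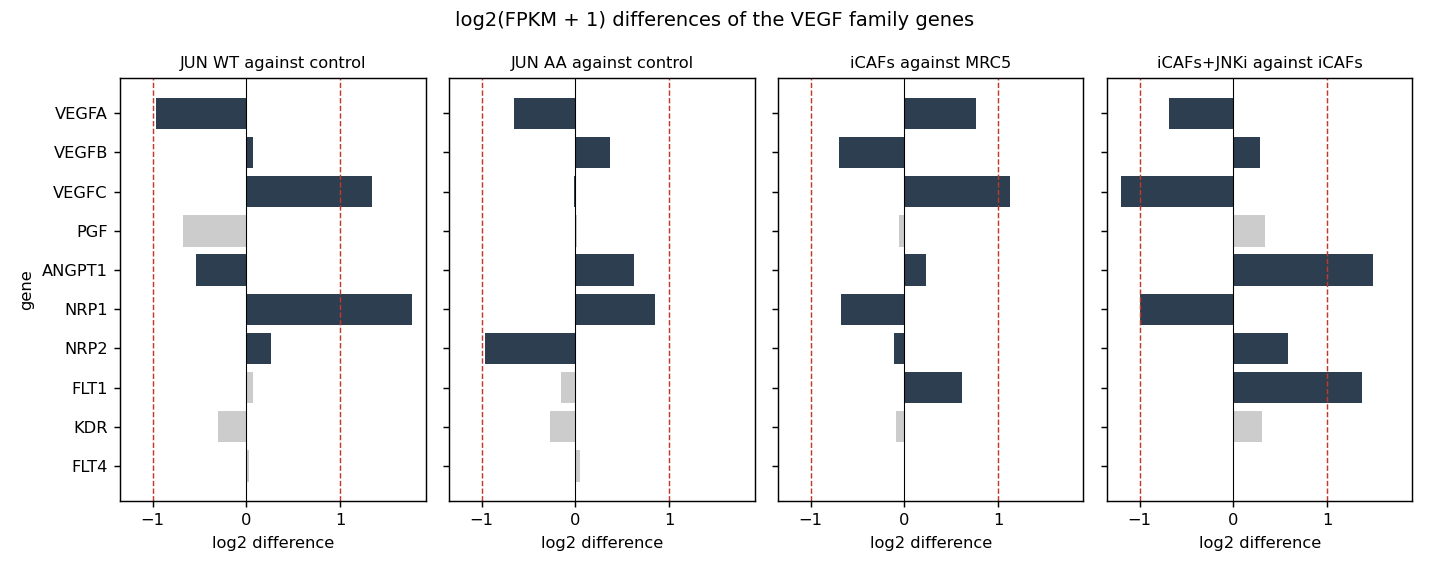
Differences in log2(FPKM + 1) of the 10 genes in 4 comparisons of single libraries, with dark bars for genes at a mean of at least 1 FPKM in the table, pale bars for genes below it, and dashed lines at 1 and -1. VEGFC passed a dashed line in JUN WT, in iCAFs and in iCAFs+JNKi but not in JUN AA, while NRP1 passed one in JUN WT, and FLT1 and ANGPT1 in iCAFs+JNKi.

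Counted over the members, 2 of the 6 that passed the filter rose in JUN WT relative to control, VEGFC and NRP1, where 6.92% of all genes rose and 3.39% fell, 10.3% together. None fell, and the median difference of the 6 was 0.17 against 0.15 over all genes. In JUN AA relative to control 0 of the 6 rose or fell, where 5.29% of all genes rose and 3.77% fell, 9.06% together. On the linear scale, however, NRP1 in JUN AA was 2.04-fold above the control, and for NRP2 the control was 2.23-fold above JUN AA. Their log2 differences, 0.85 and -0.97, were short of the threshold. In JUN WT relative to JUN AA, VEGFC and NRP2 rose, where 6.65% of all genes rose, and ANGPT1 fell, where 5.61% fell, 12.3% together. With the GC trend of all genes removed, NRP2 was at 0.76 and ANGPT1 at -0.95, both short of the threshold, and VEGFC was at 1.04. Of the 7 members that passed the filter in the JNKi table, VEGFC alone rose in iCAFs relative to MRC5, where 1.94% of all genes rose, and 0 fell, where 1.71% fell, 3.65% together. In iCAFs+JNKi relative to iCAFs, FLT1 and ANGPT1 rose, where 2.25% of all genes rose, and VEGFC fell, where 1.97% fell, 4.22% together. In iCAFs+JNKi relative to MRC5, FLT1 and ANGPT1 rose and NRP1 fell, where 3.28% of all genes rose and 3.53% fell, 6.81% together. FLT1 was low in MRC5 and iCAFs, at 0.94 and 1.97 FPKM, and its mean of 3.20 FPKM came mainly from iCAFs+JNKi. With so few members these counts are a description. Comparisons within a table share libraries and are not independent of each other.

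In JUN WT relative to control, the differences of all genes moved with transcript GC (rank correlation, Spearman's rho -0.39, across 9393 genes, which share the same 2 libraries). Transcript GC content was 54.3% for VEGFC, 51.3% for VEGFA and 44.3% for NRP1. With the median difference of genes of like GC content subtracted, the difference was 1.26 for VEGFC, 1.31 for NRP1 and -1.11 for VEGFA. In the JNKi comparison the same correlation was -0.05 across 10648 genes.

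To place VEGFC among other angiogenic factors, its differences were set beside those of a wider list of growth factors and angiopoietin-like ligands. Of the 30 ligands of these lists that passed the filter in the JUN overexpression table, VEGFC ranked 4 from the top in JUN WT relative to control. CXCL8, FGF5 and HBEGF lay above it, with differences of 2.45, 1.42 and 1.40, and FGF2 also rose, by 1.05. CXCL8 encodes a chemokine that attracts neutrophils and endothelial cells and was listed at 0 with empty vector and stood at 4.46 FPKM with JUN WT and 0.10 with JUN AA. It passed the filter only through JUN WT, so its rise and its place above VEGFC were fixed by the filter. HBEGF, an EGF receptor ligand, was at 1.51, 5.64 and 1.36 FPKM in the control, JUN WT and JUN AA, the same order as VEGFC. FGF5 was at 4.44, 13.6 and 7.07 FPKM and FGF2, a classical angiogenic factor, at 4.04, 9.46 and 6.02 FPKM in the same libraries. For these fibroblast growth factors JUN AA lay between the control and JUN WT. FGF2 shares exon bases with NUDT6 and AC021205.1, and FGF5 with CFAP299, so their reads cannot be told apart, as for VEGFA. No such overlap was listed for VEGFC, CXCL8 or HBEGF. DLL4, a Notch ligand known from vessel sprouting, fell most in JUN WT, from 14.1 to 2.24 FPKM, followed by CTGF at -1.40, FGF7 at -1.32 and MDK at -1.10.

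In iCAFs+JNKi relative to iCAFs, VEGFC ranked 6 from the bottom among 32 such ligands. IL6, HBEGF, ANGPTL4, FGF2 and FGF5 fell further, with differences of -2.90, -2.51, -1.51, -1.30 and -1.28, and CXCL8 fell by 1.19. HBEGF was at 5.95 FPKM for MRC5, 23.8 for iCAFs and 3.36 for iCAFs+JNKi. FGF2 had 16.4, 89.9 and 35.9 FPKM in these libraries, so with the inhibitor it was still above MRC5. FGF5 was at 60.9, 40.6 and 16.1 FPKM, lower in iCAFs than in MRC5, as NRP1 was. CXCL12 rose most with the inhibitor, by 3.19, followed by DLL4 at 2.07, ANGPT1 at 1.49 and ANGPTL2 at 1.39. TGFB2, ADM and PTN rose as well, by 1.11, 1.07 and 1.01. In iCAFs relative to MRC5, 12 of the 32 ligands rose and 2 fell, where 1.94% of all genes rose and 1.71% fell, and VEGFC ranked 10 from the top. CXCL8, IL6 and FGF2 led there, with differences of 8.89, 6.32 and 2.38, and PTN and FGF1 both fell, by 1.13.

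The JUN overexpression and JNKi comparisons share no library, so changes in both can be counted together. Over the 10020 genes that passed the filter in both tables, 65 rose in JUN WT relative to control and fell in iCAFs+JNKi relative to iCAFs, or 0.649%. They were 9.66% of the genes that rose in JUN WT, while 1.74% of all 10020 genes fell with the inhibitor. They were 37.4% of those that fell with the inhibitor, while 6.72% of all 10020 genes rose in JUN WT. Of the 31 ligands and family members that passed in both tables, 6 rose in JUN WT, or 19.4%. With the inhibitor 7 of the 31 fell, or 22.6%. Both changes were found in 5, namely VEGFC, CXCL8, FGF2, FGF5 and HBEGF, or 16.1%. The rise of CXCL8 in JUN WT was fixed by the filter on low values, which leaves 4 whose rise was not. VEGFC was the only VEGF family member among them, and the other 4 are ligands of other families. The ligand list was chosen with earlier results known. The median gene was at 0.15 in the JUN WT comparison and at -0.10 in the JNKi comparison. With differences centred on it, 38 genes passed both thresholds, and with the GC trend removed 41 genes did so. FGF2 was no longer among them in either setting. At a mean of at least 5 FPKM, 34 genes did so, with VEGFC, FGF2 and FGF5 of the 5. With a pseudocount of 0.1, 123 genes did so, and IL6 and NRP1 joined the 5. DLL4 went the other way in both comparisons.

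**Figure D4:**
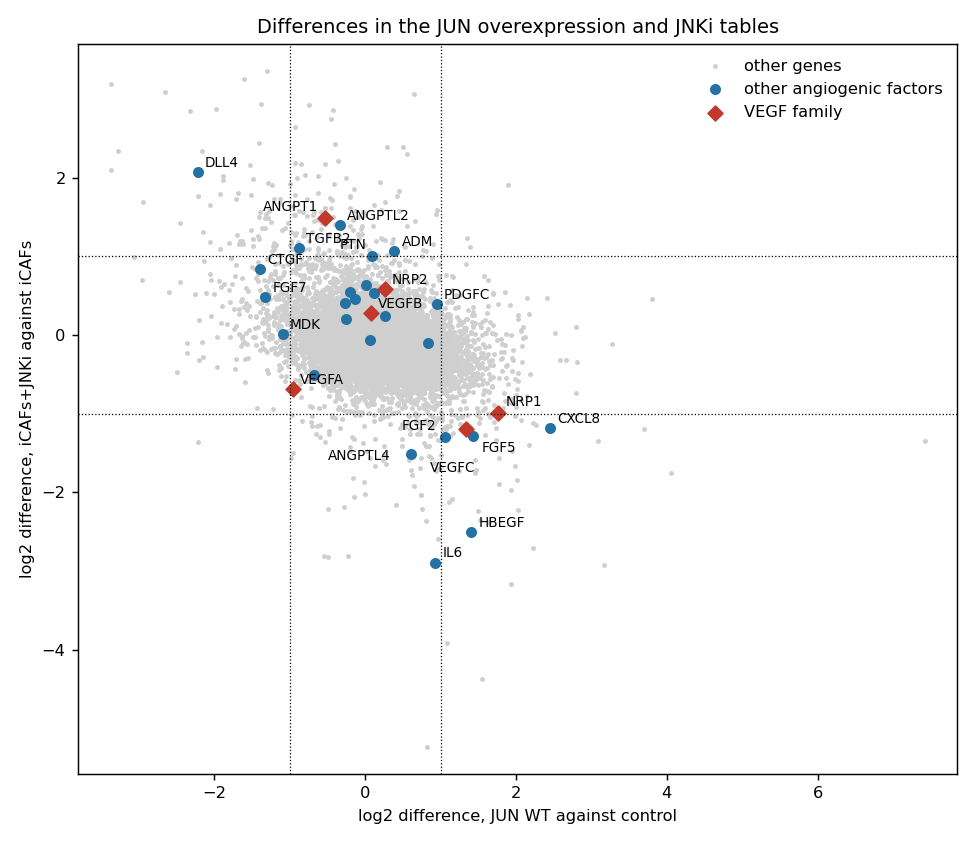
Each point is 1 of the 10020 genes in both tables, with the log2 difference in JUN WT relative to control on the horizontal axis and in iCAFs+JNKi relative to iCAFs on the vertical axis; dotted lines mark 1 and -1. VEGFC, CXCL8, FGF2, FGF5 and HBEGF lie in the lower right field, NRP1 lies at its upper edge at -0.99, VEGFA lies left of 0, and ANGPT1 lies above the upper dotted line.

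The genes whose levels over the 6 libraries were closest to those of VEGFC were PLAUR, DUSP1, ASS1, AKR1B1 and C15orf48. Likeness was the Euclidean distance of log2(FPKM + 1) values, centred within each table, among the 5753 genes that averaged 5 FPKM or more in both tables. PLAUR, the urokinase receptor, was at a distance of 0.28. It was at 40.0 FPKM with empty vector, 89.0 with JUN WT and 43.0 with JUN AA, and at 46.6 for MRC5, 94.6 for iCAFs and 48.5 for iCAFs+JNKi. DUSP1, a phosphatase of MAP kinases, followed at 0.44. VEGFA, VEGFB, NRP1 and NRP2 were the only other family members that passed this filter. NRP1 was the nearest of these, at a distance of 1.52 and rank 3250 of 5752 genes, and VEGFA ranked 4196.

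VEGFC is secreted as a precursor that is cut by proteases, and the genes of this step were looked at as well. Of 9 such genes listed, 6 passed the filter with the JUN libraries. CCBE1 rose in JUN WT relative to control, by 1.49, where 6.92% of all genes rose. CCBE1, a matrix protein that enhances the cleavage of VEGFC, was at 2.74 FPKM with empty vector, 9.50 with JUN WT and 3.99 with JUN AA. ADAMTS3, the protease that it assists, was between 0.10 and 0.31 FPKM in the same libraries. Among the JNKi libraries CCBE1 was at 18.8 FPKM for MRC5, 11.8 for iCAFs and 8.88 for iCAFs+JNKi, so it did not follow VEGFC there. ADAMTS3 had 0.50, 1.02 and 0.72 FPKM in these libraries. FURIN, which cuts the precursor inside the cell, ranged from 42.7 to 54.7 FPKM over all 6 libraries. In JUN AA relative to control ADAMTS14 rose by 1.06 and CTSD fell by 1.25, where 5.29% of all genes rose and 3.77% fell. Of the 6 genes that passed the filter in the JNKi table, 0 rose or fell in iCAFs relative to MRC5, where 3.65% of all genes did. The same held in iCAFs+JNKi relative to iCAFs, where 4.22% of all genes did.

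Of 7 class 3 semaphorins, the other ligands of the co-receptors, 4 passed the filter in each table. SEMA3C was at 2.70 FPKM with empty vector, 9.60 with JUN WT and 6.40 with JUN AA, and at 17.7 for MRC5, 34.0 for iCAFs and 15.8 for iCAFs+JNKi. It rose in JUN WT relative to control, by 1.52, and fell in iCAFs+JNKi relative to iCAFs, by 1.05, as VEGFC did, but its value of 1.00 in JUN AA relative to control lay at the threshold.

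Among 13 other VEGF and angiopoietin genes listed, VEGFD, which the tables name FIGF, was at 0 in 5 libraries and at 0.001 FPKM in iCAFs. ANGPTL4, a secreted lipase inhibitor induced by hypoxia, was at 4.80 FPKM with empty vector, 7.85 with JUN WT and 1.33 with JUN AA, and at 6.10 for MRC5, 30.3 for iCAFs and 9.96 for iCAFs+JNKi. It fell in JUN AA, by 1.32, rose in iCAFs, by 2.14, and fell with the inhibitor, by 1.51. GPC1 and PLXND1 fell in JUN WT, by 1.12 and 1.03, and GPC1 fell in JUN AA, by 1.26. Of the genes of the hypoxia response, which is known to induce VEGFA as well, 15 of 17 passed the filter in the JUN overexpression table. In JUN WT relative to control 0 rose and 1 fell, where 6.92% of all genes rose and 3.39% fell. The 1 that fell was NDRG1, from 84.7 to 17.6 FPKM, and the median was -0.19, beside 0.15 over all genes. In JUN AA relative to control PDK1 rose, by 1.52, while EPAS1, ANGPTL4 and NDRG1 fell, where 5.29% of all genes rose and 3.77% fell. In iCAFs relative to MRC5, ANGPTL4, VLDLR and HIF1A rose and 0 fell among 14 genes, where 1.94% of all genes rose and 1.71% fell. The median was 0.35, beside -0.06 over all genes. HIF1A was at 90.4 FPKM for MRC5, 253 for iCAFs and 206 for iCAFs+JNKi. In iCAFs+JNKi relative to iCAFs, ADM and EPAS1 rose and ANGPTL4 fell, where 2.25% of all genes rose and 1.97% fell. The median was -0.15, beside -0.10 over all genes.

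Among angiogenesis inhibitors, falls outnumbered rises in both JUN libraries. Of 22 listed, 15 passed the filter, and 0 rose and 5 fell in JUN WT relative to control, with a median of -0.36, where 6.92% of all genes rose and 3.39% fell. ADAMTS8, 1 of these 5, passed the filter only through the control, so its differences in both JUN libraries were not independent of the filter. In JUN AA relative to control 0 rose and 6 fell, with a median of -0.89, beside -0.02 over all genes, where 5.29% rose and 3.77% fell. In the same comparisons 4 and 3 of the 10 fibroblast markers fell, with medians of -0.75 and -0.45, and their part in the falls of the inhibitors was not tested. COL4A2, a basement membrane collagen whose fragments restrain vessel growth, was at 329 FPKM with empty vector, 115 with JUN WT and 76.9 with JUN AA. COL15A1 fell most in JUN WT, by 2.21, and CXCL10 fell most in JUN AA, by 2.09. Among the JNKi libraries COL4A2 was at 104 FPKM for MRC5, 295 for iCAFs and 750 for iCAFs+JNKi, rising at both steps. In iCAFs+JNKi relative to iCAFs 4 of 16 inhibitors rose and 1 fell, with a median of 0.59, where 2.25% of all genes rose and 1.97% fell. The 1 that fell, CXCL10, passed the filter only through iCAFs. SULF1, which trims the heparan sulfate that holds VEGF, rose most, from 0.57 to 15.4 FPKM. It passed the filter only through iCAFs+JNKi, so its rise and its rank were not independent of the filter.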

How the data were processed

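RNA was measured in 6 libraries, 1 per condition, grouped by the sample labels. The authors mapped reads to hg19 with HISAT2 2.1.0 and deposited FPKM per gene from StringTie 2.1.1. The annotation, the strand setting and the number of reads are not given in the sources used here. Among genes below 0.5 FPKM, no ratio between libraries held more than 3.59% of genes, so whole reads could not be recovered. Each table has 25370 rows, and where a symbol was repeated only its row of highest mean FPKM entered.

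Differences in log2(FPKM + 1) were computed within each table, which were normalised separately, with Python 3.11.15, numpy 2.4.6, pandas 2.3.3 and scipy 1.17.1. FPKM are not counts, so no count model was used, and with 1 library per condition no test was made. The procedure was tested on simulated data. Gene positions, exon overlaps and GC content came from GRCh37 with GENCODE v44lift37, and promoters from RefSeq. Figures were drawn with matplotlib 3.10.9.

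The members and gene lists were chosen with earlier results of these data known. Genes are named where they are members, JUN, among the 3 largest rises or falls of at least 2-fold of their list in a comparison, or among the 5 closest to VEGFC in pattern. Further genes of the lists were named after their values were seen. Alternatives were FPKM scaled so that each library sums to 1000000, a smaller pseudocount (0.1), differences centred on the median gene, removal of the GC trend in 20 bins, no filter and a filter of 5 FPKM.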

Additional observations from a re-analysis of the deposited data

How the results depend on the processing

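VEGFC kept its side of the 2-fold threshold in all 6 comparisons under each alternative computed for it. Its difference ranged from 1.18 to 1.39 in JUN WT against control, from 1.12 to 1.21 in iCAFs against MRC5 and from -1.22 to -1.06 in iCAFs+JNKi against iCAFs. In JUN AA against control it was -0.31 with rescaled FPKM and 0.25 with the GC trend removed. In JUN WT against JUN AA it was 1.67 with rescaled FPKM and 1.04 with the GC trend removed. The number of members changed in JUN AA against control was 2 with a pseudocount of 0.1, NRP1 and NRP2, and 1 with rescaled FPKM, NRP2, in place of 0. In JUN WT against JUN AA it was 1 with the GC trend removed, VEGFC, in place of 3. The number of genes that rose in JUN WT and fell with the inhibitor was 65, and 123 with a pseudocount of 0.1, 38 with centring, 41 with the GC trend removed and 34 at a mean of at least 5 FPKM. Rescaling moved the median gene in JUN AA against control from -0.02 to -0.29. For the differences of the 10 members, 193 of 240 values under an alternative stayed within 0.25 on the log2 scale of the value reported and 47 moved further. No difference of at least 2-fold changed sign. The limit of 0.25 was chosen here because there are no replicates. No paired analysis was possible because each condition has 1 library, and for the same reason no library could be left out.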
